A study of Homo sapiens with 6 samples.

Results

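The integrated stress response genes described here were 10 of the 54259 gene symbols in the count table: the transcription factors ATF4, ATF3, ATF5, DDIT3 (CHOP) and CEBPB, and the response genes DDIT4, TRIB3, CHAC1, SESN2 and PPP1R15A (GADD34). The 10 were chosen by name from the known ATF4 and CHOP circuit, with the shBry against shNC fold changes of these same libraries already in view. Their levels and fold changes between the groups are therefore given as a description, with no p-value, and are not independent evidence of a direction. All 10 had enough counts to be among the 15277 genes that entered the fit.

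RNA-Sequence was performed on MDA-MB-231, a human triple-negative breast cancer line. The comparison asks which transcripts differ when brachyury, a T-box factor of the early embryo, is targeted. A total of 3 libraries came from cells carrying a short hairpin RNA named shBry, directed at brachyury, and 3 from control cells carrying the hairpin shNC. The sources used here do not say whether a line was 1 clone or a pool, which sequence the hairpin had, or whether the 3 libraries of a group were separate cultures, so that every p-value below measures only the spread between these libraries, which may be technical. Brachyury, listed as T, had 0 counts in all 6 libraries, which allows at most 0.131 to 0.155 CPM (counts scaled to library size, at 3 counts of the total). VARS, a tRNA synthetase gene that every cell uses, was also listed at 0 in all 6, so this limit covers counting error only, and what set these 0 counts was not tested. The knockdown could not be checked on its target. Between 19319411 and 22985371 counts fell on genes per library. All 8 markers of MDA-MB-231 cells were detected, with a summed level of 8189 to 8704 CPM in shBry and 8958 to 9354 CPM in shNC, and CAV1 alone among them was called (lower, log2 fold change -1.11). The 9 leukocyte markers summed to 5.65–6.28 CPM in shBry and 3.01–3.12 CPM in shNC. Of these, 3 were at 0 in all libraries, PTPRC and TYROBP among them. ITGAM was called higher (log2 fold change 2.23) and CD14 lower (-1.26). The 7 mesothelial markers summed to 51.6–57.9 CPM and 40.2–42.1 CPM, mostly MSLN, with KLK11 at 0, LRRN4 called higher (0.76) and CALB2 called lower (-2.52). The 8 genes known to be low in MDA-MB-231 summed to 28.0–30.9 CPM and 20.3–23.9 CPM, with KRT5 at 0 and EPCAM called higher (1.47). The part of these other markers in the results was not tested. CPM are normalized by TMM, except that the limit at 3 counts given for brachyury uses total counts. A difference in bulk RNA cannot tell fewer expressing cells from less RNA per cell.

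In the integrated stress response, kinases that sense unfolded protein in the endoplasmic reticulum, lack of amino acids, double-stranded RNA or lack of heme phosphorylate the initiation factor eIF2. General translation then falls, while mRNAs with short upstream reading frames, ATF4 above all, are translated more. ATF4 protein pairs with other leucine zipper factors, such as the C/EBP proteins, and turns on genes of amino acid supply, CHOP, and the feedback genes TRIB3 and PPP1R15A, the latter of which brings a phosphatase back to eIF2.

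Promoter sequences are shown first for the members with a match to a sequence that these factors are known to bind. The 10 were chosen from the known ATF4 and CHOP circuit, and whether they shared a regulator here was not tested. RefSeq promoters (GRCh38.p14, 250 bases before to 50 after the start) were found for all 10 genes. They were searched on both strands for TGATGNAA (the C/EBP-ATF response element), TGACGTCA (the cyclic AMP response element), TGANTCA (the AP-1 site) and the ER stress response element. Only the first listed start of each gene was used, so other starts were not covered. Capitals mark the match. Where the match lay in an exon that GENCODE 29 draws for another transcript, as for CHAC1 and ATF5, only 30 bases around it are given, and the other stretches stop where an annotated exon begins.
CHAC1, chr15:40953251-40953280, plus strand: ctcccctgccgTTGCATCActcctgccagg
ATF3, chr1:212565157-212565333, plus strand: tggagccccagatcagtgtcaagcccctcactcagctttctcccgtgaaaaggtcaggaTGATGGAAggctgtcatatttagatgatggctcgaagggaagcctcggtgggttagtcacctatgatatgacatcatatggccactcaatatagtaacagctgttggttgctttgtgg
PPP1R15A, chr19:48872171-48872391, plus strand: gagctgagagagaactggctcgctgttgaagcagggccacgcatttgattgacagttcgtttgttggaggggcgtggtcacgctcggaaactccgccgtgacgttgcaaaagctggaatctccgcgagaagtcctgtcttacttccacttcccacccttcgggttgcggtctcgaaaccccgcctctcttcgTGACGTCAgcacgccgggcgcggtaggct
DDIT3, chr12:57520744-57520764, minus strand: gcgcgcgcaTGACTCAcccac
ATF5, chr19:49928707-49928736, plus strand: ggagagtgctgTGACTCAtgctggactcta

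The C/EBP-ATF response element was found in 2 of the 10 promoters. In CHAC1 it lay at positions -209 to -202 from the start and read TGATGCAA on the opposite strand, and in ATF3 it lay at -191 to -184. The same letters stood in 1.65% of 10516 promoters of tested genes and in 3.67% of all 27305 promoters. Among the 9 lists of related genes described further on, 14 of 133 promoters held it. They were 6 of 11 promoters of the tRNA synthetase list, 4 of 15 of amino acid genes, 2 of 17 of stress targets and 1 of 19 of mTORC1 control. The last was PPP1R15B, which is in 2 lists. It was the 1 of 12 of eIF2 and eIF2B and also the 1 of 6 of paralogs. The other leucine zipper factors, the eIF2 kinases and the IRE1 and ATF6 branch had 0 of 30, 10 and 16. The cyclic AMP response element was found in PPP1R15A alone among the 10, at -58 to -51, and in 3.20% of promoters of tested genes. The AP-1 site, which reads as itself on both strands, was found in DDIT3 and ATF5, and in 4.93% of promoters of tested genes. None of the 10 held the ER stress response element, which 5 of 16 genes of the IRE1 and ATF6 branch did. A match of letters is a description of the window and shows no binding. The windows of ATF4, DDIT4, TRIB3, SESN2 and CEBPB held none of the 4 motifs.

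Taken as a sum, the 10 genes made up 0.369%, 0.333% and 0.351% of all counts in the shBry libraries and 0.107%, 0.105% and 0.0986% in the shNC libraries. In CPM the sums were 3842, 3222 and 3565 against 1060, 1054 and 973. The groups lay far apart on this sum, and the order of genes inside it differed too. PPP1R15A supplied 34.9% to 37.7% of the members' counts in shBry and 13.5% to 15.7% in shNC, whereas ATF4 supplied 17.9% to 19.5% and 39.7% to 44.2%. In 9 of the 10 genes every shBry library was above every shNC library, ATF5 being the exception. That pattern was found in 30.6% of all tested genes. By the call rule used for the other genes (Benjamini-Hochberg adjusted p below 0.05 in edgeR's quasi-likelihood test and a fold change above 1.5), counted here only as a description, 9 lay past the limits as higher and 0 as lower. Over all tested genes 32.4% were called, 17.1% as higher and 15.2% as lower in shBry, and nothing is read from the members' count, because the members were chosen with this contrast known. The median log2 fold change of the 10 was 2.04, beside 0.03 for all tested genes.

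**Figure D1:**
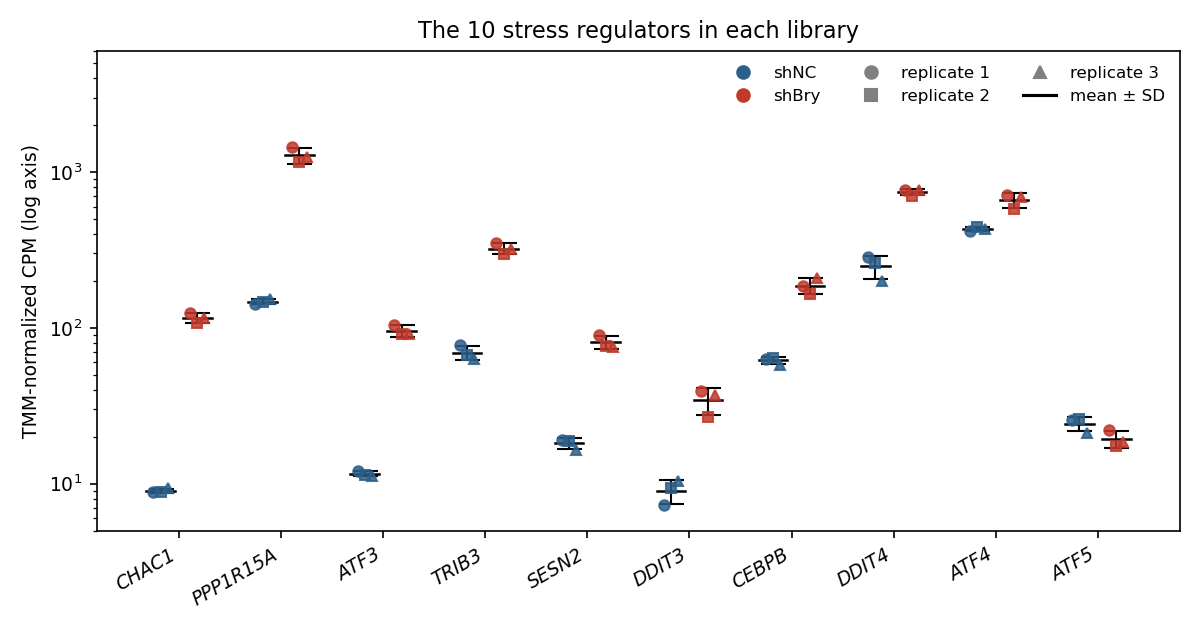
Level of each of the 10 genes in each library, in TMM-normalized CPM on a log axis, with shBry and shNC libraries as points and the group mean ± SD (n = 3) as a black bar with whiskers. The 3 shBry points lie above the 3 shNC points in 9 genes, by most in CHAC1, and the points overlap in ATF5.

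ATF4, the factor at the centre of the response (chr22:39519695-39522685 on GRCh38, plus strand), was at 714, 578 and 696 CPM in the shBry libraries and at 421, 441 and 429.9 CPM in the shNC libraries. The groups did not overlap, although the lowest shBry library was only 1.31 times the highest shNC library. The means were 663 ± 74.0 and 431 ± 10.4 CPM (SD, n = 3 each), a log2 fold change of 0.62, or 1.54-fold. This was the smallest difference among the 9, and it lay next to the fold change limit: without shBry replicate 1 it was 0.56 and without shBry replicate 3 it was 0.58, and ATF4 was then not called, which left 8 members called. Processed pseudogenes of ATF4 share 17.9% of the 50-base stretches of its transcripts, and they held 0 to 11 counts per library against 8584 to 15699 for ATF4 itself.

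ATF3, a leucine zipper factor induced by many stresses (chr1:212565334-212620777, plus strand), was at 105, 90.8 and 91.7 CPM in shBry and at 12.05, 11.4 and 11.3 CPM in shNC. Each shBry library was at least 7.54 times each shNC library. The means were 95.7 ± 7.78 and 11.6 ± 0.411 CPM, a log2 fold change of 3.05.

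DDIT3 encodes CHOP, a C/EBP relative known for its part in stress-induced cell death (chr12:57516588-57521737, minus strand). It was at 39.4, 26.7 and 37.2 CPM in shBry and at 7.28, 9.36 and 10.4 CPM in shNC. The shBry library of replicate 2 was the lowest of its group, yet still 2.56 times the highest shNC library. The means were 34.4 ± 6.81 and 9.02 ± 1.59 CPM, a log2 fold change of 1.93. Exons of other genes cover 39.6% of the exon bases of DDIT3, among them MARS on the other strand. MARS was at 4879 to 9547 counts per library and was itself higher in shBry, with a log2 fold change of 0.80 (SE 0.08, Benjamini-Hochberg adjusted p = 1.69e-06, edgeR quasi-likelihood test). Whether the counting used strand is not given in the sources used here, so reads of both strands cannot be told apart for DDIT3.

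CEBPB, a C/EBP factor of inflammation and differentiation (chr20:50190734-50192689, plus strand), was at 186, 166 and 208 CPM in shBry and at 63.2, 64.4 and 58.1 CPM in shNC. The groups did not overlap. The means were 187 ± 21.3 and 61.9 ± 3.34 CPM, a log2 fold change of 1.59. Its antisense neighbour CEBPB-AS1 covers part of the same exons and held 14 to 32 counts per library.

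ATF5, a close relative of ATF4 that is known to be translated in a like way (chr19:49928702-49933935, plus strand), was at 22.0, 17.5 and 18.4 CPM in shBry and at 25.6, 25.8 and 21.3 CPM in shNC. It alone overlapped between the groups, since the highest shBry library was above the lowest shNC library. The means were 19.3 ± 2.35 and 24.2 ± 2.55 CPM, a log2 fold change of -0.33. That value ran from -0.44 to -0.28 when each library was left out in turn. Exons of other genes cover 23.7% of its exon bases, mainly NUP62 on the other strand, a nuclear pore gene that was lower in shBry (log2 fold change -0.81, SE 0.08, Benjamini-Hochberg adjusted p = 1.02e-06 in edgeR).

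Among the response genes, CHAC1 was the furthest apart. It encodes an enzyme that degrades glutathione (chr15:40952962-40956519, plus strand). Its level was 125, 107 and 115 CPM in shBry and 8.84, 8.79 and 9.32 CPM in shNC. Every shBry library was at least 11.5 times every shNC library. The means were 116 ± 8.87 and 8.98 ± 0.288 CPM, a log2 fold change of 3.69, or 12.9-fold.

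PPP1R15A, the inducible subunit that directs protein phosphatase 1 to eIF2 (chr19:48872392-48876057, plus strand), reached 1447, 1156 and 1243 CPM in shBry and 143, 147 and 152 CPM in shNC. It had the highest CPM of the 10 in each shBry library. The means were 1282 ± 149.8 and 148 ± 4.84 CPM, a log2 fold change of 3.12, or 8.69-fold.

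TRIB3, a pseudokinase that binds ATF4 and CHOP and damps them (chr20:362835-397559, plus strand), was at 351, 299 and 318 CPM in shBry and at 77.3, 67.2 and 63.5 CPM in shNC. No value of one group came near the other, the smallest ratio being 3.86. The means were 323 ± 26.6 and 69.3 ± 7.13 CPM, a log2 fold change of 2.22.

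DDIT4 (REDD1) and SESN2 both hold back the growth kinase complex mTORC1. DDIT4 (chr10:72273920-72276036, plus strand) was at 762, 706 and 761 CPM in shBry and at 284, 259 and 199.8 CPM in shNC. The shNC library of replicate 3 was the lowest, and the groups stayed at least 2.49-fold apart. The means were 743 ± 32.1 and 248 ± 43.1 CPM, a log2 fold change of 1.59. An antisense gene, DDIT4-AS1, covers 41.2% of its exon bases. SESN2, a leucine sensor (chr1:28259527-28282491, plus strand), was at 90.4, 76.5 and 75.8 CPM in shBry and at 19.2, 18.7 and 16.5 CPM in shNC. The groups stayed at least 3.96-fold apart. The means were 80.9 ± 8.28 and 18.1 ± 1.40 CPM, a log2 fold change of 2.16.

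**Figure D2:**
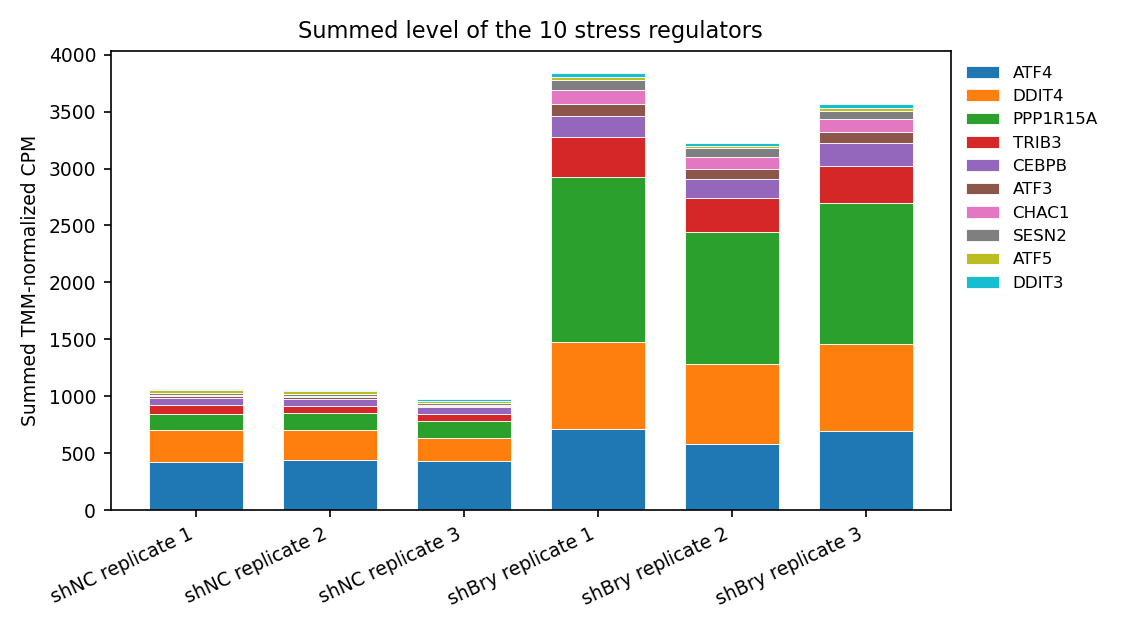
Summed level of the 10 genes in each of the 6 libraries, in CPM, stacked by gene from 0. The shBry stacks reach 3222 to 3842 CPM and the shNC stacks 973 to 1060 CPM, with PPP1R15A the largest block in shBry and ATF4 in shNC.

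Compared per kilobase of merged exons (CPM per kilobase), the order of levels differed between the groups. In shNC cells ATF4 was first at 171 and DDIT4 second at 120, followed by PPP1R15A at 47.7, CEBPB at 31.6, TRIB3 at 20.2, ATF5 at 8.20, DDIT3 at 6.90, SESN2 at 5.25, CHAC1 at 4.37 and ATF3 at 2.87. Only ATF5 and DDIT3 overlapped among neighbours in that order. In shBry cells PPP1R15A was first at 414, followed by DDIT4 at 361, ATF4 at 264, CEBPB at 95.4, TRIB3 at 94.0, CHAC1 at 56.2, DDIT3 at 26.4, ATF3 at 23.7, SESN2 at 23.4 and ATF5 at 6.53. Here the libraries of CEBPB and TRIB3 overlapped, as did those of DDIT3 with ATF3 and of ATF3 with SESN2. CHAC1 thus stood ninth in one group and sixth in the other, and ATF5 moved from sixth to last. With the longest transcript in place of merged exons, 6 of the 10 kept their rank in shBry and 7 in shNC. CHAC1 was then last in shNC, at 4.86 beside 5.25 for SESN2 and 5.51 for ATF3.

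The members also differed relative to ATF4 mRNA. PPP1R15A had 0.334 to 0.354 counts for each count of ATF4 in shNC and 1.79 to 2.03 in shBry. CHAC1 had 0.0199 to 0.0217 and 0.166 to 0.185, and ATF5 had 0.0495 to 0.0608 and 0.0264 to 0.0308. The ratio of ATF4 to DDIT3 counts was 41.3 to 57.8 in shNC and 18.1 to 21.7 in shBry. ATF4 therefore differed less between the groups than the 8 other members that were higher.

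Within the shBry group the members often lay on the same side of their means. In replicate 1 all 10 were above their group mean, by a median of 0.13 on the log2 scale, while the median of all tested genes was 0.01. In replicate 2 all 10 were below it, by a median of -0.12 beside -0.02 for all genes, with DDIT3 lowest at -0.35. In replicate 3, 4 were above and 6 below. CEBPB was only 0.0014 above its mean in replicate 1, and DDIT4 0.037. The deviations of a gene balance out within its group, so those of one library are not independent of those of the others. The shNC libraries were more mixed, with 6, 7 and 3 genes above the mean in replicates 1, 2 and 3. DDIT4 and DDIT3 were furthest from their means there, DDIT4 at -0.29 in replicate 3 and DDIT3 at -0.29 in replicate 1.

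**Figure D3:**
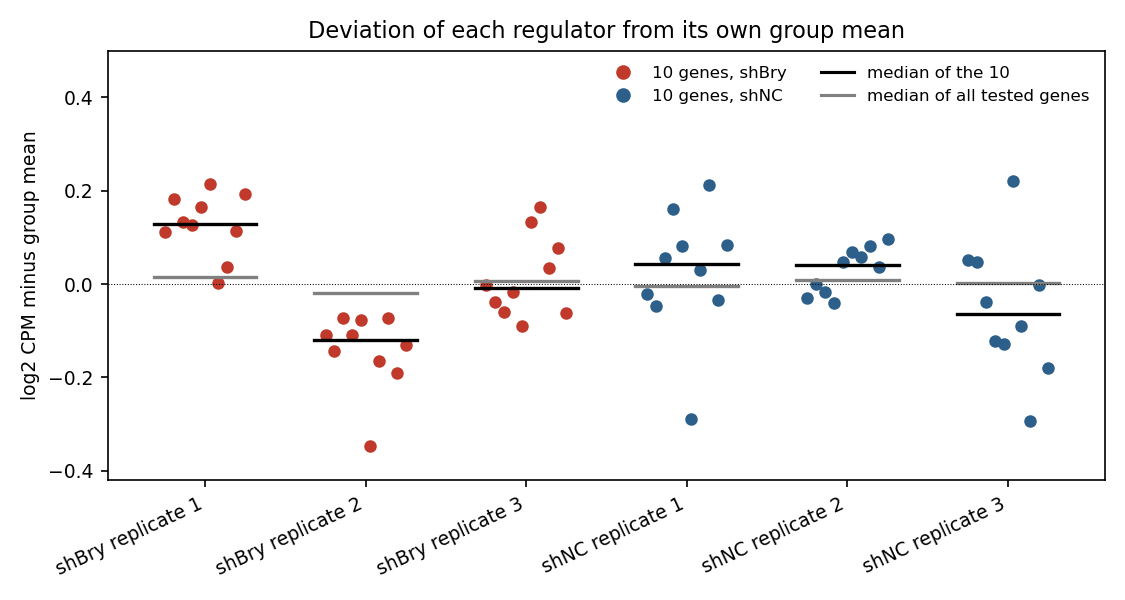
Difference of each gene's log2 CPM from its group mean, by library, for the 10 genes, with the median of the 10 as a black bar and the median of all tested genes as a grey bar. All 10 points lie above 0 in shBry replicate 1 and below 0 in shBry replicate 2, and the points of the other 4 libraries lie on both sides.

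The genes most like ATF4 and DDIT3 in profile were sought among 9412 genes whose mean level reached 10 CPM, by the root mean square difference of centred log2 CPM over the 6 libraries. For ATF4 they were TMEM50A (0.026), EEF1A1P6 (0.029), VDAC2 (0.031), PPA1 (0.032) and YTHDF2 (0.032). No other member was near, the closest being ATF5 at rank 6666, although its log2 fold change was -0.33, and CEBPB at rank 6751. For DDIT3 they were LOC105369848 (0.140), GJB2 (0.143), SNHG1 (0.146), CHMP4C (0.146) and ODC1 (0.155). CEBPB stood at rank 70, SESN2 at rank 76 and TRIB3 at rank 106 for DDIT3. The ranking is a description over 6 libraries that fall into the 2 groups, and it largely follows the fold change between them. The genes named for ATF4 had log2 fold changes of 0.58 to 0.66, and those named for DDIT3 1.82 to 1.89.

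The rest of the pathway was described by 9 lists of related genes with 164 genes in all, of which 158 were tested. The lists, like the members, were chosen with earlier results of these data known. Their counts and p-values are therefore not independent evidence of a direction. In shBry cells 81 rose and 7 fell by edgeR's quasi-likelihood test (adjusted p below 0.05, fold change above 1.5), with a median log2 fold change of 0.62. Without shNC replicate 3 the number that fell was 11. Adjusted p-values in the paragraphs that follow are from this test with Benjamini-Hochberg adjustment over all tested genes, values are mean CPM ± SD with n = 3 in each group, and SE is the standard error of the log2 fold change. In each list the 3 genes with the smallest p are named. Over all tested genes 17.1% rose and 15.2% fell.

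Upstream, the list of eIF2 kinases and their regulators had 3 of 11 genes that rose and 1 that fell, with a median of 0.28. Among the kinases, EIF2AK1, the heme-regulated kinase, fell from 117 ± 3.45 to 68.5 ± 4.55 CPM (log2 fold change -0.77, SE 0.08, edgeR adjusted p = 3.28e-06). The other 3 were not called. EIF2AK4, the amino acid sensor GCN2, had a log2 fold change of -0.45 (SE 0.09, edgeR adjusted p = 0.000763), below the fold change limit. EIF2AK3, the endoplasmic reticulum kinase PERK, had 0.49 (SE 0.15, edgeR adjusted p = 0.011) and was called higher without shBry replicate 1, at 0.63. EIF2AK2, the double-stranded RNA kinase PKR, had -0.44 (SE 0.17, edgeR adjusted p = 0.0406) and was called lower without shBry replicate 2, at -0.67. DNAJC3, an inhibitor of these kinases, rose from 28.8 ± 3.74 to 54.4 ± 2.70 CPM (log2 fold change 0.92, edgeR adjusted p = 7.16e-06). PRKRA, an activator of PKR, rose by 0.62 (edgeR adjusted p = 0.000524), a call that was lost without shBry replicate 2, at 0.50, and without shNC replicate 1, at 0.58.

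For eIF2, its exchange factor eIF2B and the phosphatase, 3 of 14 genes rose and 1 fell, with a median of 0.16. PPP1R15B, the constitutive counterpart of PPP1R15A, rose from 61.0 ± 7.46 to 117 ± 15.1 CPM (log2 fold change 0.94, SE 0.11, edgeR adjusted p = 7.72e-06). EIF2A, a separate initiation factor, rose by 0.75 on the log2 scale (edgeR adjusted p = 3.86e-05). EIF2B5, the catalytic subunit of eIF2B, fell by 0.73 on the log2 scale (edgeR adjusted p = 7.34e-06).

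Of 33 tested leucine zipper factors outside the 10, 20 rose and 0 fell, with a median of 0.85. CEBPG, a dimer partner of ATF4, rose from 28.7 ± 0.393 to 114 ± 5.42 CPM (log2 fold change 1.99, SE 0.09, edgeR adjusted p = 3.37e-10). XBP1, the factor spliced by IRE1, rose from 88.2 ± 2.61 to 379.7 ± 36.3 CPM (log2 fold change 2.11, SE 0.09, edgeR adjusted p = 2.53e-10). MAFF, a small MAF protein, rose from 72.1 ± 4.47 to 252 ± 22.2 CPM (edgeR adjusted p = 1.41e-09).

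Of 7 paralogs of the members, 3 rose and 2 fell, with a median of 0.15. TRIB1 rose from 16.7 ± 0.868 to 33.5 ± 5.17 CPM (edgeR adjusted p = 1.58e-05), whereas TRIB2 fell from 12.7 ± 0.602 to 5.13 ± 1.07 CPM (edgeR adjusted p = 1.58e-05). SESN3 fell from 5.15 ± 1.21 to 1.52 ± 0.140 CPM (log2 fold change -1.76, edgeR adjusted p = 2.25e-05). SESN1 was at 4.06 ± 0.387 CPM in shNC and 2.95 ± 0.258 CPM in shBry and was not called (edgeR adjusted p = 0.0606). CHAC2, a slower enzyme of the same reaction as CHAC1, had means of 6.49 CPM in shNC and 7.16 CPM in shBry and was not called (edgeR adjusted p = 0.524). DDIT4L rose from 0.381 ± 0.0394 to 1.14 ± 0.447 CPM, on 7 to 39 counts per library (edgeR adjusted p = 0.00495).

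Downstream, the lists of amino acid, tRNA synthetase, and stress and death targets held most of the called pathway genes. Among 18 tested amino acid genes 15 rose and 0 fell, with a median of 1.64. ASNS, asparagine synthetase, rose from 97.5 ± 5.30 to 616 ± 36.1 CPM (log2 fold change 2.66, SE 0.08, edgeR adjusted p = 1.47e-11). CTH, which makes cysteine, rose by 3.35 (edgeR adjusted p = 2.12e-11), and SLC1A4, a neutral amino acid carrier, by 2.77 (edgeR adjusted p = 4.7e-11). Among 13 tested genes of the tRNA synthetase list, which also holds the tRNA export gene XPOT, 12 rose and 0 fell, with a median of 0.99. SARS rose from 308 ± 3.75 to 961 ± 96.4 CPM (edgeR adjusted p = 2.26e-09), and YARS and WARS rose by 1.45 and 1.16 on the log2 scale (edgeR adjusted p = 4.71e-09 and 2.7e-08). Among 25 stress and death targets 20 rose and 0 fell, with a median of 1.38. INHBE, an inhibin subunit, had 2169, 2774 and 2696 counts in shBry and 6, 1 and 6 counts in shNC, a fitted log2 fold change of 9.11 (edgeR adjusted p = 3.59e-13). TXNIP, a thioredoxin inhibitor, rose from 143 ± 10.4 to 1610 ± 180.4 CPM (edgeR adjusted p = 6.23e-12), and GADD45A, a growth arrest gene, from 24.96 ± 1.69 to 353 ± 53.8 CPM (edgeR adjusted p = 1.31e-11).

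Of 24 genes of mTORC1 control 1 rose and 2 fell, with a median of -0.09. DDIT4 and SESN2, which act on this complex, were both higher in shBry, and the activity of mTORC1 was not measured. RRAGB, a Rag GTPase, fell from 16.6 ± 0.936 to 7.68 ± 0.941 CPM (log2 fold change -1.11, SE 0.14, edgeR adjusted p = 1.35e-05). WDR24 fell by 0.60 (edgeR adjusted p = 0.000179), a call lost without shNC replicate 2 at -0.58, and AKT1S1 had -0.53 (edgeR adjusted p = 0.00019) and was called lower only without shNC replicate 3, at -0.62. In the IRE1 and ATF6 branch of the unfolded protein response 6 of 16 genes rose and 1 fell, with a median of 0.42. ERN1, which encodes IRE1, rose from 10.1 ± 1.09 to 50.6 ± 0.997 CPM (edgeR adjusted p = 1.26e-09), XBP1 rose as given above, and HSPA5, the chaperone BiP, rose by 1.36 (edgeR adjusted p = 9.81e-09).

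**Figure D4:**
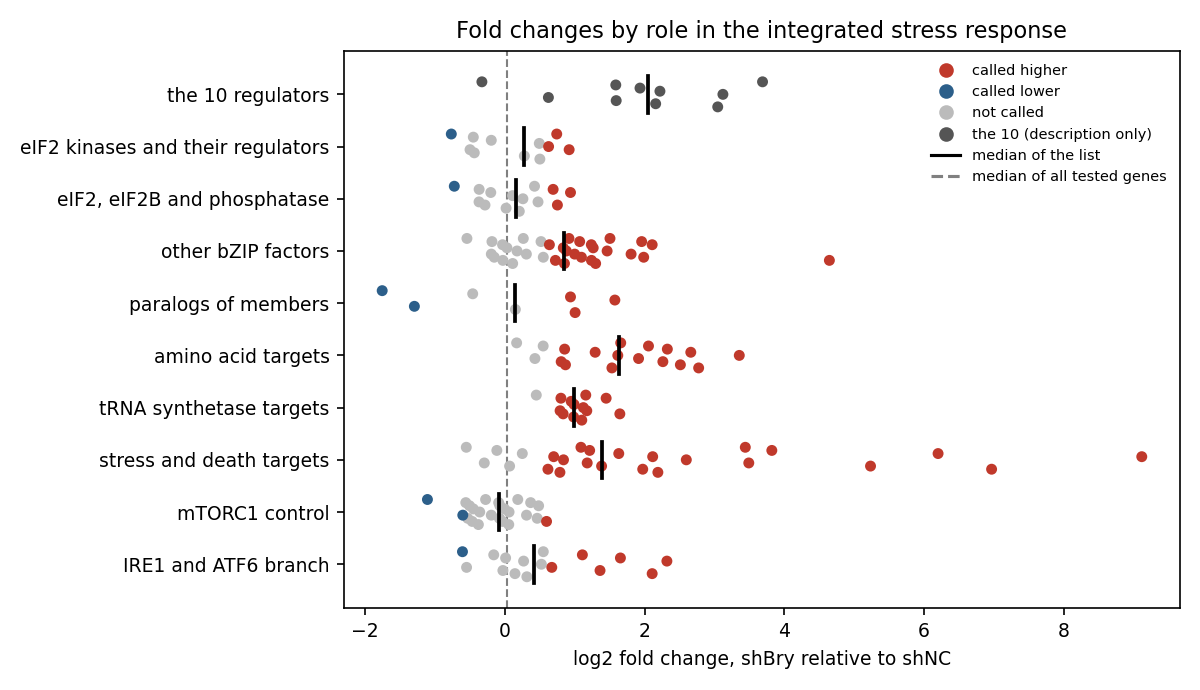
Log2 fold change of shBry relative to shNC for every tested gene of the 9 lists, each point a gene, coloured by whether it was called higher, lower or not, with the list median as a bar and the median of all tested genes as a dashed line. All points of the tRNA synthetase and amino acid lists lie to the right of the dashed line, whereas the stress target and mTORC1 lists have points on both sides of it, and the 10 regulators are drawn in grey as a description.

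Upstream start codons, which can let an mRNA be translated when eIF2 is phosphorylated, were counted in the principal coding transcripts of GENCODE 29. At least 1 upstream ATG stood in the leader of 7 of the 10 genes and in 54.3% of 12129 tested coding genes. ATF4 had 7, TRIB3 had 3, ATF5, DDIT3 and PPP1R15A had 2 each, ATF3 and SESN2 had 1 each, and CHAC1, DDIT4 and CEBPB had 0. These counts depend on the transcript model, and the count tables measure RNA, not translation.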

How the data were processed

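RNA-Sequence was performed on MDA-MB-231 shBry and shNC cells (3 libraries each), grouped by the shRNA label. The series description calls the RNA pericardial, whereas the labels name the cell line. The authors deposited raw counts, whole numbers of reads per gene symbol with no normalization. The submitters' processing notes name HISAT2 2.0.4, HTSeq and GRCh38, and the annotation and strand setting are not given in the sources used here. For the RNA-Sequence calls the sources used here give limits of p and fold change without naming a test.

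Counts were filtered with filterByExpr (minimum count 10), scaled by TMM and tested between groups in edgeR 4.0.16 (R 4.3.3) with its quasi-likelihood F statistic. A gene was called where p, adjusted by Benjamini-Hochberg, was under 0.05 and the fold change exceeded 1.5. SE is the absolute log2 fold change divided by the square root of F. The script was checked on simulated data. The members and gene lists were chosen with earlier results of these data known. Named genes were the 10 members, brachyury, the 3 genes with the smallest p in each list, the paralogs, the eIF2 kinases, and the 5 genes most like ATF4 and most like DDIT3. Floors (3 counts) cover counting error only. Alternatives were no TMM scaling, DESeq2 1.42.0, limma-voom (limma 3.58.1), other filters, fold change limits and prior count, a replicate block, the longest transcript and leaving out each library. Gene models came from GENCODE 29 and promoters from RefSeq. Protein identity was not analysed here.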

Additional observations from a re-analysis of the deposited data

How the results depend on the processing

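The log2 fold changes of the members and of the single genes tested kept their sign under the alternatives. The order of the members' levels did change with the length used. With a fold change limit of 2, 2297 genes were called in all, and of the pathway lists 53 rose and 3 fell. With no fold change limit, 8139 genes were called, 98 pathway genes rose and 26 fell. All 10 members then lay past the adjusted p limit, ATF5 as lower (log2 fold change -0.33), counted only as a description. These counts follow from the limit itself. Leaving out each library in turn gave 4587 to 5025 called genes, 8 to 9 called members, 78 to 83 pathway genes that rose and 7 to 11 that fell. The 11 came without shNC replicate 3, for which the cause was not tested. With the longest transcript as length, 6 of the 10 members kept their rank in shBry and 7 in shNC. In shNC the order of SESN2, CHAC1 and ATF3 by merged exons became ATF3 (5.51), SESN2 (5.25) and CHAC1 (4.86). In shBry TRIB3 (129) then stood above CEBPB (95.4), and ATF3 (45.5) above DDIT3 (32.3). Same-numbered libraries had correlations of 0.18, -0.08 and -0.03 in their deviations, and not every library correlated best with its own number. These values cannot settle whether same-numbered libraries were prepared together, and the main fit did not pair them. With the replicate block 4914 genes were called, 9 members among them, and 81 pathway genes rose and 7 fell. Under the other alternatives these counts stayed within 1.5 times. Among the single genes tested, 3 calls were lost and 3 gained, all with a library left out, as given beside each gene. The other fold change limits were not applied to these genes one by one. Depth limits statements on genes at a few counts, such as the 3-count floor of 0.131 to 0.155 CPM.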

Other observations

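SLC7A11, SLC3A2, NFE2L2, PSAT1 and PSPH were picked after their values were seen, and stand for no group. SLC7A11, which brings cystine into the cell, had 1125, 2058 and 1400 counts in shBry and 258, 271 and 345 in shNC, a log2 fold change of 2.32 (SE 0.16, Benjamini-Hochberg adjusted p = 4.32e-08, edgeR quasi-likelihood test). Its partner chain SLC3A2 rose from 239.5 ± 6.76 to 1147 ± 124.9 CPM (edgeR adjusted p = 1.65e-10). NFE2L2, the factor NRF2, rose from 41.0 ± 4.99 to 67.5 ± 1.02 CPM (edgeR adjusted p = 3.1e-05).

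Of the serine synthesis enzymes, PSAT1 rose from 93.6 ± 8.11 to 295 ± 9.05 CPM (edgeR adjusted p = 1.87e-09) and PSPH from 30.7 ± 2.23 to 75.1 ± 6.03 CPM (edgeR adjusted p = 9.66e-08). PHGDH, the first enzyme of the same route, had 0, 0 and 5 counts in shBry and 0, 0 and 1 in shNC and was not tested. CBS and VARS were listed at 0 in all 6 libraries.

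Low counts in shNC were seen for 3 genes of secreted proteins in the stress target list, picked after their values were seen, whereas VEGFA, another secreted protein of that list, had a mean of 59.1 CPM in shNC. GDF15 had 216, 217 and 252 counts in shBry and 4, 1 and 0 in shNC. FGF21 had 25, 44 and 35 counts in shBry and 1, 0 and 0 in shNC. STC2 had 268, 335 and 341 counts in shBry and 9, 5 and 10 in shNC.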
